A study of Mus musculus with 55 samples.

Results

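Bulk RNA-seq of the ventral dentate gyrus was compared between 10 susceptible (SUS) and 7 resilient (RES) mice, all male C57BL/6J, which grew up in standard housing (SH) and were later exposed to chronic social defeat stress (CSDS). These 17 mice are the SH mice with a defeat phenotype among the 54 mice of the series, which gave 55 libraries. The other groups were 10 unstressed SH control mice, 10 control libraries from mice in an enriched environment (EE), and 9 RES and 9 SUS mice in EE. CSDS places a mouse with a larger aggressive CD1 male day after day, and the mice were then sorted by how much time they spent near an unfamiliar CD1 male in a social interaction test. SUS and RES mice had the same housing and stress and were grouped by this behavior, and the comparison asks which transcripts differ between mice that withdrew and mice that did not. Each library is labelled as 1 mouse, from a punch of frozen tissue, and the study's methods state that RNA of this cohort was not pooled. The methods also give 1 to 7 replicates per defeat group, whereas the labels give 10 SUS libraries. The labels were followed, and this mismatch was not resolved.

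The dentate gyrus is the entry gate of the hippocampus. Its granule cells receive cortical input and excite the mossy cells of the hilus and the pyramidal cells of CA3, and local GABA interneurons restrain them. It is also one of few regions in which new neurons are added in adult rodents, and the ventral part of the hippocampus is tied to anxiety-like and stress-related behavior. A punch of this tissue also holds glia, vessels and blood, and its borders lie close to CA1, CA3, the thalamus and the choroid plexus of the ventricle.

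The libraries were of similar depth. The total count assigned to genes on the transcript strand ranged from 18273321 to 23306953 in RES mice and from 19651514 to 24061273 in SUS mice. Levels are given in CPM, the count of a gene scaled to the library size, and differences as log2 fold changes of SUS against RES mice, so that negative values are lower in SUS mice. An error after ± is the SD between mice for a level and the SE of the edgeR fit for a log2 fold change. No label gives the cage, litter or cohort of a mouse, so effects of these cannot be told apart from the groups. Markers of the labelled tissue were present. Prox1, the transcription factor gene that sets granule cell identity, averaged 153 CPM in RES and 143 CPM in SUS mice. Some libraries stood apart. SUS 3 and SUS 7 held transcripts of the choroid plexus at levels seen in none of the RES mice, and RES 3 held the largest share of read pairs that were not mapped. List medians whose sign turned when SUS 3 and SUS 7 were left out, and those of several other lists, are also given without these mice. Leaving them out was chosen after the data were seen, and it removes mice of the SUS group only. A range beside a list median gives its lowest and highest value when 1 mouse was left out, with that mouse.

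No gene passed an adjusted p of 0.05 between SUS and RES mice over the 17991 genes tested. The smallest adjusted p of edgeR was 0.476, and limma and DESeq2 also called 0 genes (0.00%). At an unadjusted p below 0.05 edgeR, limma and DESeq2 called 933, 946 and 883 genes (5.19%, 5.26% and 4.91%). At the criterion of the study, which is an unadjusted p below 0.05 in limma and a fold change above 1.3, 200 genes (1.11%) were called, 120 of them higher in SUS mice (0.667%) and 80 lower (0.445%). The same criterion gave 213 genes (1.18%) with edgeR, 136 higher (0.756%) and 77 lower (0.428%), and 171 genes (0.950%) with DESeq2, 109 higher (0.606%) and 62 lower (0.345%). In counts simulated for the same groups, with 17866 genes tested, the criterion called 197 genes that had not been changed. Of the 200 genes called with limma in the real data, 130 lay below 1 CPM on average, and only 76 were protein-coding. All values that follow are therefore differences in level that did not pass an adjusted test, and a call refers to the criterion of the study.

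The smallest p belonged to Lag3, an inhibitory receptor of lymphocytes and microglia that binds MHC class II. Lag3 lies at chr6:124904361-124911705 (GRCm38, minus strand). Its level ranged from 1.34 to 1.91 CPM with a median of 1.64 CPM in the 7 RES mice, and from 0.670 to 1.56 CPM with a median of 1.10 CPM in the 10 SUS mice. Lag3 was lower in 9 of 10 SUS mice than in every RES mouse, and the exception was SUS 10. The log2 fold change was -0.63 ± 0.14, with an adjusted p of 0.476, and control mice averaged 1.15 ± 0.256 CPM, close to SUS mice. The noncoding transcript B230110C06Rik (chr14:15437623-15452445, plus strand) came next, at 0.857 ± 0.219 CPM in SUS and 1.42 ± 0.330 CPM in RES mice (n = 10 and 7). Its log2 fold change was -0.72 ± 0.16, and controls averaged 0.931 CPM.

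The CPM of SUS and RES mice did not overlap for 2 of 17991 genes (0.0111%), which were Klhl32 and Orc6. Both were lower in all 10 SUS mice than in any RES mouse. With groups of this size, a few of so many genes can separate fully by chance alone, and neither gene passed an adjusted test. Klhl32, a kelch-family gene at chr4:24612554-24851124, ranged from 33.2 to 40.2 CPM with a median of 37.1 CPM in SUS mice and from 40.9 to 50.5 CPM with a median of 43.0 CPM in RES mice. The log2 fold change was -0.24 ± 0.053, less than the fold of 1.3 that the criterion asks for, and RES 1 stood well above the other RES mice. Orc6, a subunit of the origin recognition complex that licenses DNA replication, lies at chr8:85299632-85308278. It ranged from 18.8 to 21.2 CPM with a median of 19.9 CPM in SUS and from 21.7 to 24.7 CPM with a median of 22.8 CPM in RES mice, a log2 fold change of -0.19 ± 0.052. Control mice overlapped both groups for Klhl32 (31.0 to 43.1 CPM) and for Orc6 (19.5 to 24.5 CPM).

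The other genes among the 12 with the smallest p moved by less than 1.3-fold in 5 cases. Gripap1, which acts in recycling endosomes that carry AMPA receptors, was at 85.8 ± 3.83 CPM in SUS and 79.1 ± 2.21 CPM in RES mice, with 8 of 10 SUS mice above every RES mouse. P4ha2, a prolyl hydroxylase of collagen, had a log2 fold change of 0.34 ± 0.082, and Lrig1, a brake on EGF-family receptors, one of 0.32 ± 0.085. The transporter gene Slc35f5 (-0.22 ± 0.055) and Cdh13, which encodes T-cadherin (-0.21 ± 0.058), were lower in SUS mice. Krt9, a keratin, was at 3.34 ± 0.939 CPM in SUS and 5.12 ± 1.39 CPM in RES mice. Tuba8, an alpha-tubulin, was at 11.8 ± 2.63 CPM and 7.97 ± 1.12 CPM, a log2 fold change of 0.57 ± 0.15, with 7 of 10 SUS mice above all RES mice. Adjusted p-values of these genes lay between 0.736 and 0.927.

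**Figure D1:**
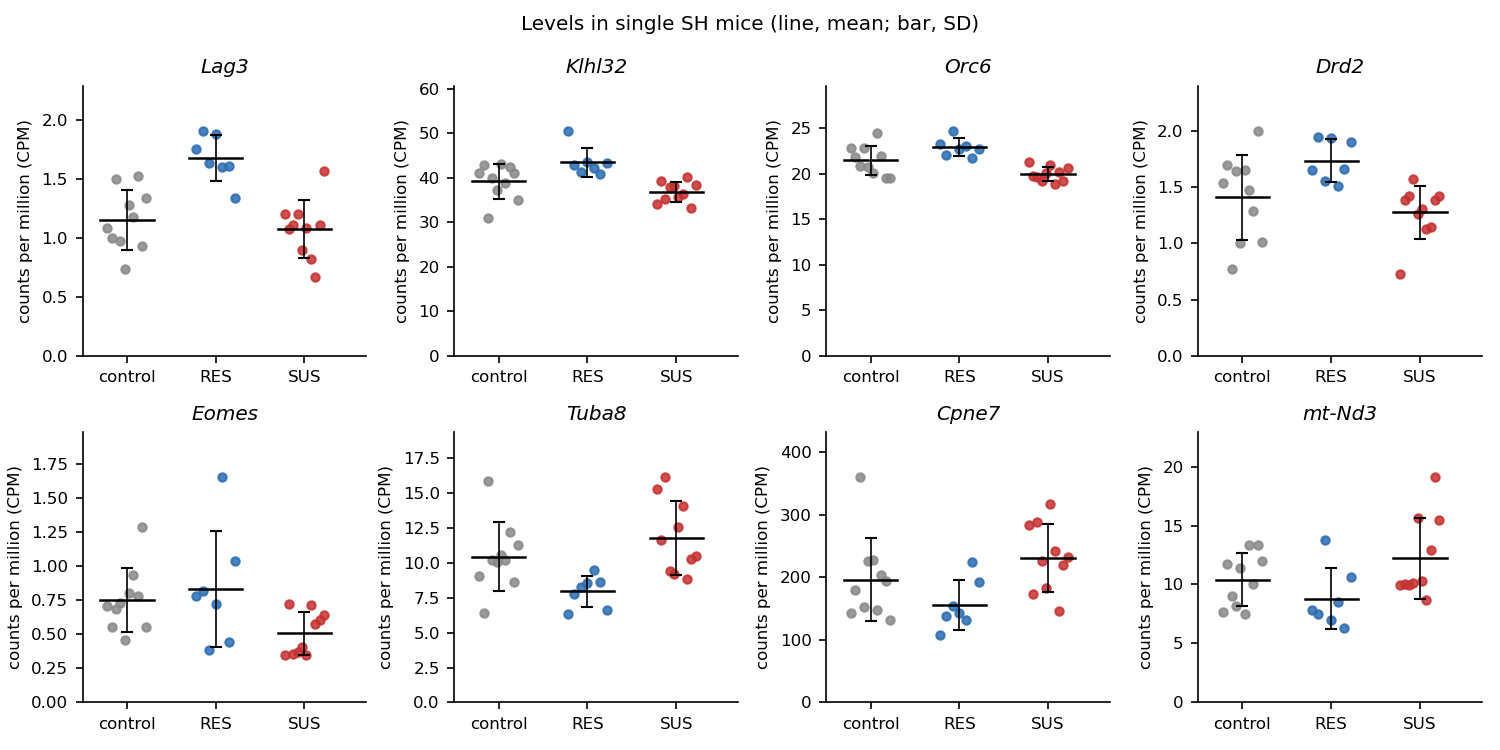
Levels of 8 named genes in single SH mice, in CPM on the y axis from 0, for control (n = 10), RES (n = 7) and SUS mice (n = 10), with each point 1 mouse, the line the mean and the bar the SD. SUS and RES points separate for Klhl32 and Orc6, separate except for SUS 10 in Lag3 and SUS 4 in Drd2, and overlap for Eomes, Tuba8, Cpne7 and mt-Nd3, while control points overlap both groups in every panel, and none reaches the median of RES mice for Lag3.

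Among protein-coding genes called at the criterion with at least 1 CPM, those with the largest log2 fold changes in each direction are described. In the higher direction these were Tuba8, the calcium-dependent phospholipid-binding gene Cpne7, the transcription factor genes Plagl1 and Zbtb7c, the procollagen peptidase Adamts14, the germ-line gene Rnf17 and the protease inhibitor Serpina3g. Cpne7 was by far the most abundant of them, ranging from 108 to 225 CPM with a median of 143 CPM in RES and from 145 to 318 CPM with a median of 229 CPM in SUS mice. Its log2 fold change was 0.57 ± 0.16, with 6 of 10 SUS mice above every RES mouse. Serpina3g showed the largest difference, 0.92 ± 0.33, from 1.58 ± 0.986 CPM in RES to 2.98 ± 1.51 CPM in SUS mice, but only 2 SUS mice exceeded every RES mouse, and near-identical Serpina3 paralogs can share its reads. Adamts14 was at 1.46 ± 0.293 CPM against 0.926 ± 0.241 CPM, with 8 of 10 SUS mice above all RES mice. Zbtb7c had a log2 fold change of 0.57 ± 0.18 and Rnf17 one of 0.54 ± 0.21, and the call of Rnf17 was lost without RES 5.

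In the lower direction the named genes were Dsc3, Eps8l1, Rxfp1, Tshz2, Lag3, Krt9 and Dtl. Tshz2, a zinc finger transcription factor gene, ranged from 9.54 to 43.3 CPM with a median of 12.9 CPM in SUS and from 15.5 to 44.5 CPM with a median of 21.0 CPM in RES mice, and 8 of 10 SUS mice lay below every RES mouse. SUS 4 and SUS 5 were the exceptions, SUS 5 with 43.3 CPM, and the log2 fold change of -0.66 became -0.97 without this mouse. SUS 5 was also far above the other SUS mice for the desmosomal cadherin Dsc3, at 3.82 CPM, and for the relaxin receptor Rxfp1, at 12.8 CPM. For both genes edgeR gave a wide error, -1.06 ± 0.60 and -0.71 ± 0.40, and the call was lost when single other mice were left out. Eps8l1, which binds actin regulators, was at -0.73 ± 0.39, a call lost in 7 of 17 fits with 1 mouse left out. Dtl, an adaptor of a ubiquitin ligase that acts during DNA replication, was at 1.32 ± 0.315 CPM in SUS and 2.01 ± 0.610 CPM in RES mice (-0.61 ± 0.19).

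Cell type markers were then read as lists, each described by the median log2 fold change of its members beside the median of 0.0030 over all genes tested, of which 51.6% were higher in SUS mice. In bulk tissue, fewer cells of a type and less RNA per cell cannot be told apart. The granule lineage leaned lower in SUS mice. Of 15 markers of mature granule cells 13 were lower and 2 higher, with a median of -0.091 and no call. Stxbp6, a SNARE-binding protein gene, was at 134 ± 22.1 CPM in SUS and 160.1 ± 13.3 CPM in RES mice (-0.25 ± 0.11), and the cation channel gene Trpc6 at 101 ± 17.3 CPM and 122 ± 19.5 CPM (-0.26 ± 0.12). The list did not separate the groups. Its mean log2 CPM was 6.60 ± 0.061 in RES and 6.49 ± 0.22 in SUS mice, and SUS mice held both the highest level, 6.75 in SUS 2, and the 2 lowest, 6.08 in SUS 3 and 6.19 in SUS 1. Without SUS 3 and SUS 7 the median was -0.040.

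Markers of immature granule neurons and their progenitors showed the lowest median of the cell type lists, -0.21, with 12 of 15 lower in SUS mice and 3 higher. Eomes, a transcription factor of intermediate progenitors, was the member called. It ranged from 0.345 to 0.718 CPM with a median of 0.490 CPM in SUS and from 0.388 to 1.65 CPM with a median of 0.779 CPM in RES mice, with a log2 fold change of -0.72 ± 0.24. RES 5 alone held 1.65 CPM, and without it the log2 fold change was -0.47 and the call was lost. The proliferation genes Mki67 (-0.25), Top2a (-0.30) and Cenpf (-0.26), and Dcx (-0.22) and Sox11 (-0.21) of newborn neurons, were lower in SUS mice without a call, and Nes of stem cells was at 0.084. On the list as a whole 6 of 10 SUS mice lay below every RES mouse. Without RES 5 the list median was -0.12, and without SUS 3 and SUS 7 it was -0.15. The mature and immature lists share no gene.

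Of 6 hilar mossy cell markers 5 were lower and 1 higher in SUS mice, with a median of -0.12. Drd2, the dopamine D2 receptor that marks mossy cells in this tissue, ranged from 0.732 to 1.57 CPM with a median of 1.34 CPM in SUS and from 1.51 to 1.95 CPM with a median of 1.66 CPM in RES mice. Its log2 fold change was -0.44 ± 0.15, and 9 of 10 SUS mice lay below every RES mouse. SUS 4 was the exception, and the call was lost without SUS 1, the lowest mouse, at -0.37. Calb2, which encodes calretinin and labels mossy cells and immature neurons, averaged 121 CPM in SUS and 153 CPM in RES mice (-0.34 ± 0.13). Ociad2 was the member that was higher, at 0.28. As a list, 6 of 10 SUS mice lay below every RES mouse, and the median was -0.11 without SUS 3 and SUS 7.

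CA3 pyramidal cell markers went the other way, with 9 of 10 higher in SUS mice, 1 lower and a median of 0.16. Plagl1, an imprinted zinc finger gene, was the member called, at 10.5 ± 4.13 CPM in SUS and 6.57 ± 2.78 CPM in RES mice (0.67 ± 0.27), and the call was lost without RES 2 or without SUS 3. Nectin3 (0.20), Hs3st4 (0.20) and the kainate receptor gene Grik4 (0.15) were higher without a call. The list was above every RES mouse in 5 of 10 SUS mice, among them SUS 3, SUS 7 and SUS 1, and the median was 0.083 without SUS 3 and SUS 7. CA1 markers split, with 5 higher, 4 lower and 1 of the lower ones called (median 0.072, from 0.011 without RES 4 to 0.13 without RES 2). CA2 markers split as well (3 higher, 4 lower, median -0.067, from -0.082 without SUS 9 to -0.030 without RES 4), with Amigo2 at 0.29 ± 0.11 and the neurotrophin gene Ntf3 at -0.22 ± 0.12. GABA interneuron markers were higher in 13 of 17 cases by a median of 0.040 (from 0.021 without RES 7 to 0.060 without RES 4), and Lhx6 (0.17 ± 0.084) and Dlx1 (0.16 ± 0.093), both transcription factor genes of interneurons, came closest to the threshold.

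All 15 markers of mature oligodendrocytes were higher in SUS mice, with a median of 0.20 and no call. Ermn, a myelin-associated cytoskeletal gene, was at 0.27 ± 0.15, Cldn11, a tight junction gene of myelin, at 0.26 ± 0.16, and the myelin gene Mbp at 0.17. This lean came largely with SUS 3 and SUS 7. SUS 3 had a list level of 6.09 log2 CPM, against 5.07 ± 0.11 in RES mice, and without SUS 3 and SUS 7 the median was 0.015. Oligodendrocyte precursors and newly formed oligodendrocytes were higher for 8 of 11 markers (median 0.054, from 0.010 without RES 5 to 0.077 without RES 2, and 0.018 without SUS 3 and SUS 7), with Olig2 at 10.7 ± 1.06 CPM in SUS and 8.65 ± 1.24 CPM in RES mice (0.31 ± 0.10), and Sox10 at 0.18 ± 0.10.

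The medians of other glia and of vessels were nearer to 0. Astrocyte markers had a median of -0.021 (from -0.036 without SUS 8 to 0.0053 without RES 1), with 5 of 14 higher, and Slc1a3, the glutamate transporter GLAST, was at -0.10 ± 0.051 with 8 of 10 SUS mice below every RES mouse. Slc7a10 was at 0.10 ± 0.052. Homeostatic microglia markers were lower in 15 of 17 cases by a median of -0.050 (from -0.078 without RES 7 to -0.032 without SUS 6). Gpr34 (-0.13 ± 0.077) and the transcription factor gene Sall1 (-0.10 ± 0.089) led them, P2ry12 was at -0.058 and Cx3cr1 at 0.0027. Endothelial markers had a median of 0.032 (9 of 16 higher, from 0.0016 without SUS 8 to 0.063 without SUS 10), with Egfl7 at 0.15 ± 0.057 and the VEGF receptor gene Kdr at 0.17 ± 0.086. Border macrophages (0.044, 5 of 8 higher, Cbr2 at 0.43 ± 0.22 and Lyve1 at -0.22 ± 0.20), pericytes and smooth muscle (0.011, 7 of 11, Pdgfrb at 0.073 ± 0.10) and fibroblasts (0.0037, 6 of 12, Dcn at 0.30 ± 0.29) gave no call. With 1 mouse left out these medians ran from -0.0090 without RES 5 to 0.11 without RES 1 for border macrophages, from -0.036 without RES 5 to 0.036 without SUS 4 for pericytes and from -0.075 without SUS 8 to 0.066 without RES 3 for fibroblasts. Without SUS 3 and SUS 7 the medians of pericytes and fibroblasts turned to -0.0063 and -0.061.

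Markers of tissue outside the dentate gyrus were very high in single mice. Ttr, the transthyretin gene that defines choroid plexus epithelium, was at 315 CPM in SUS 3 and 143 CPM in SUS 7, and at most 4.22 CPM in the other 8 SUS mice. RES mice ranged from 0.0454 to 1.94 CPM with a median of 0.146 CPM, and 1 control mouse reached 874 CPM. The summed level of the 9 choroid markers tested, of 13 listed, was 23.1 to 28.0 CPM in RES and 23.8 to 370.4 CPM in SUS mice. Folr1, Kcne2, Slc4a5 and Steap1 did not pass the filter. The list median of 0.83 was 0.23 without SUS 3 and SUS 7. Of 9 ependymal markers only 2 passed the filter, and Foxj1, a transcription factor of ciliated cells, was called at 0.46 ± 0.22. This call was lost in 7 of 17 fits with 1 mouse left out, among them those without SUS 3 and without SUS 7, and the log2 fold change was 0.32 without both. The mean level of the ependymal markers was 0.99 ± 0.29 log2 CPM in RES and 1.29 ± 0.26 log2 CPM in SUS mice. Thalamic markers were higher for 11 of 11 genes by a median of 0.20, which was 0.052 without the same mice, and their summed level was 206 to 456 CPM in RES and 165 to 568 CPM in SUS mice. RES 4, which stood apart from the other RES mice on this list (4.62 log2 CPM, next 3.65), was kept in that fit. Tcf7l2, which marks thalamic neurons, was highest in SUS 6 among SUS and in RES 4 among RES mice.

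SUS 3 thus held the highest mean log2 CPM of choroid plexus, thalamic, oligodendrocyte and CA3 markers of the 17 mice and the lowest of both granule cell lists. With the choroid and thalamic levels as covariates the medians were 0.033 for oligodendrocytes, 0.073 for CA3, -0.026 for mature and -0.15 for immature granule cells and -0.11 for mossy cells. Whether tissue outside the dentate gyrus accounts for any part of these differences was not tested. Without SUS 3 and SUS 7 the criterion called 205 genes in place of 200, of which 135 were shared.

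Red cell transcripts were higher in SUS mice for 7 of 7 genes, by a median of 0.42. The summed level of the list was 98.4 to 254 CPM in RES, 68.6 to 422 CPM in SUS and 52.8 to 107 CPM in control mice, so the defeated groups overlapped, and only RES 5 lay within the range of control mice among the RES group. Hba-a1, an alpha-globin gene whose reads can be shared with Hba-a2, was at 0.51 ± 0.33. Of 10 neutrophil markers 3 passed the filter, with Lcn2 at 1.21 ± 1.0 and Mmp9 at 0.21 ± 0.20, and of 13 lymphocyte markers 2 did. The T cell genes Cd3e, Cd3d, Cd3g, Cd4 and Cd8a were not among them, and Trbc2 was at 0.30 ± 0.28 and Ighm at -0.029 ± 0.090.

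**Figure D2:**
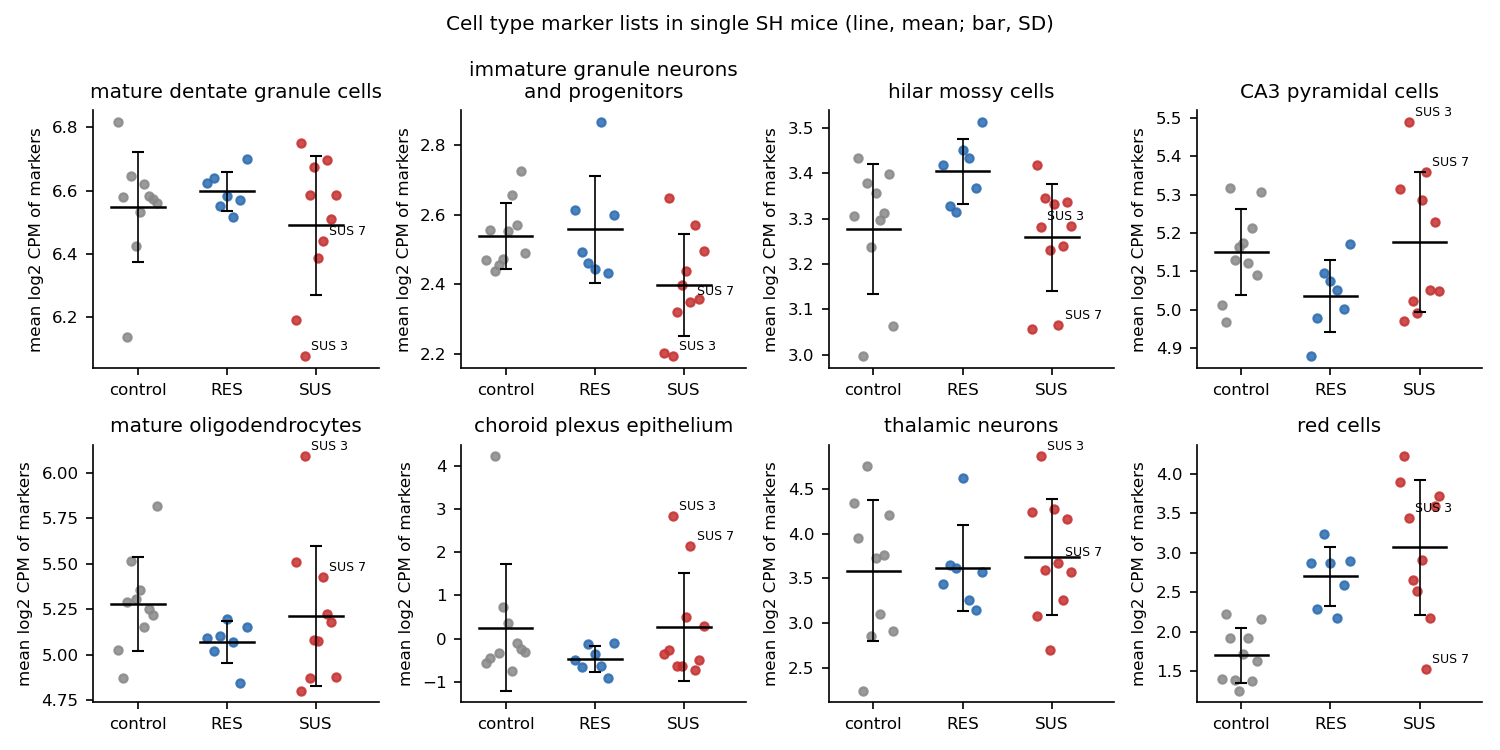
Mean log2 CPM of 8 cell type marker lists in single SH mice for control (n = 10), RES (n = 7) and SUS mice (n = 10), with each point 1 mouse, the line the mean, the bar the SD and SUS 3 and SUS 7 labelled. SUS 3 is the highest SUS mouse for CA3, oligodendrocyte, choroid plexus and thalamic markers and the lowest for both granule cell lists, and the ranges of SUS and RES mice overlap in every panel.

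The medians of pathway lists were mostly within 0.1 of 0. The exception was the group of proteins encoded by mitochondrial DNA, the core subunits of the respiratory chain, with 9 of 13 transcripts higher in SUS mice, a median of 0.18 and 2 calls. mt-Nd3 ranged from 8.64 to 19.1 CPM with a median of 10.2 CPM in SUS and from 6.30 to 13.8 CPM with a median of 7.84 CPM in RES mice (0.47 ± 0.15), and mt-Atp8, which overlaps mt-Atp6, was at 4.81 ± 1.72 CPM and 3.37 ± 1.26 CPM (0.51 ± 0.20). The differences lay in the genes with fewer counts, which also included mt-Atp6 (0.25, 29.8 CPM in SUS mice) and mt-Co3 (0.27, 153 CPM). The summed level of the list was not higher in SUS mice, with a median of 16420 CPM in SUS and 16616 CPM in RES mice. The call of mt-Atp8 was lost without RES 2 or RES 6, and with the share of unmapped read pairs as a covariate the list median was 0.15. With 1 mouse left out it ran from 0.13 without RES 4 to 0.27 without RES 3, RES 3 being the mouse with the largest unmapped share. The more highly counted mt-Co1, mt-Cytb and mt-Nd1 had log2 fold changes of -0.035, -0.048 and 0.0084. Reads of mitochondrial genes can also match copies in the nuclear genome, and multimapping pairs are not in these counts. A low count therefore need not mean a rare transcript. The nuclear genes of oxidative phosphorylation were higher in 61 of 81 cases by a median of only 0.018, with Ndufa12 at 0.13 ± 0.063. That median was 0.0053 without SUS 3 and -0.00097 without SUS 3 and SUS 7. Cytosolic ribosomal protein genes were lower in 66 of 78 cases by a median of -0.030 (from -0.050 without RES 7 to -0.013 without RES 3), led by Rpl22l1 (-0.11 ± 0.064) and Rpl10 (-0.087 ± 0.053). None of these nuclear genes was called.

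Among synaptic genes, those of vesicle release were higher in 31 of 41 cases (median 0.073, from 0.051 without RES 1 to 0.093 without SUS 5), while its 2 leading members went in opposite directions. Sv2b, a vesicle glycoprotein of excitatory terminals, was at 626 ± 139 CPM in SUS and 503 ± 56.4 CPM in RES mice (0.32 ± 0.12), and its relative Sv2c was at 41.0 ± 8.04 CPM and 52.2 ± 7.23 CPM (-0.34 ± 0.13). The median of the vesicle list was 0.033 without SUS 3 and SUS 7. Of the AMPA, NMDA and kainate receptor list (18 of 27 higher, median 0.049, from 0.015 without RES 5 to 0.057 without SUS 5) the auxiliary subunit Cacng3 was lower at -0.19 ± 0.077 and the auxiliary subunit Neto1 higher at 0.23 ± 0.10, and without SUS 3 and SUS 7 the list median was 0.030. Metabotropic glutamate receptors (6 of 10 higher, median 0.025, from -0.0088 without RES 5 to 0.036 without SUS 10) were led by Grm8 at -0.26 ± 0.10, and Grm3 was at -0.10 ± 0.058. GABA receptors (7 of 16 higher, median -0.0064, from -0.029 without RES 4 to 0.014 without SUS 4) gave no call. Potassium channels (15 of 34 higher, median -0.017, from -0.028 without SUS 2 to 0.0028 without RES 6) held higher levels of Kcnq5, an M-current channel, at 131 ± 26.5 CPM in SUS and 100.2 ± 11.7 CPM in RES mice (0.39 ± 0.13), and of Kcnn1 (0.15 ± 0.057). In the list of monoamine and acetylcholine receptors (17 of 30 higher, median 0.0060, from -0.018 without RES 1 to 0.032 without RES 4) Drd2 was the member called.

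The medians of hormone and activity lists were near 0. The glucocorticoid receptor and target list had a median of -0.014, or -0.050 without SUS 3 and SUS 7 (10 of 22 higher, from -0.041 without SUS 3 to 0.015 without RES 4). Nr3c1, the glucocorticoid receptor, was at 136 ± 5.92 CPM in SUS and 145 ± 8.88 CPM in RES mice (-0.081 ± 0.037), Ddit4 at -0.14 ± 0.070, and the induced targets Fkbp5 and Sgk1 at 0.059 and -0.078. Immediate early genes split (13 of 25 higher, median 0.020, from -0.039 without RES 5 to 0.063 without RES 6). Ier5 was at -0.20 ± 0.080 and Bdnf, the neurotrophin gene, at 63.0 ± 5.19 CPM in SUS and 70.5 ± 12.5 CPM in RES mice (-0.16 ± 0.081). RES 5 held 97.1 CPM of Bdnf, far above the other RES mice, and without it the log2 fold change was -0.068. Fos and Arc were at -0.21 and 0.10. Among opioid and stress peptides (11 of 24 higher, median -0.0060, from -0.043 without RES 3 to 0.011 without RES 4) 2 members were called. Crhr2, a receptor for corticotropin-releasing factor and urocortins, ranged from 0.861 to 2.01 CPM with a median of 1.51 CPM in SUS and from 1.27 to 2.59 CPM with a median of 2.07 CPM in RES mice (-0.49 ± 0.15), and the call held when any 1 mouse was left out. Tacr1, the substance P receptor, was higher at 0.41 ± 0.21, a call that was lost in 9 of 17 such fits. Neurotrophins and receptors had a median of 0.0100 (from -0.032 without RES 5 to 0.027 without SUS 3), with Sorcs3 at 0.19 ± 0.089.

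Immune lists were near 0. The MHC class I list had a median of 0.0034 (from -0.015 without RES 6 to 0.030 without RES 4), with its transcriptional activator Nlrc5 at 0.42 ± 0.21 and the peptide transporter Tap2 at 0.12 ± 0.073. The MHC class II list, to which Lag3 belongs, had a median of 0.024 over 9 of 12 members (from 0.0013 without RES 4 to 0.22 without SUS 4). The invariant chain Cd74 (0.63) and H2-Aa (0.67) were higher and H2-Ab1 (-0.15) lower without a call. Interferon response genes were lower in 16 of 25 cases (median -0.031, from -0.10 without SUS 3 to -0.0038 without SUS 4), and the member called, Serpina3g, was higher. Complement had a median of 0.0073 (from -0.028 without RES 2 to 0.026 without SUS 4), with C3 called at 0.614 ± 0.385 CPM in SUS and 0.287 ± 0.140 CPM in RES mice (1.08 ± 0.51), a call lost in 11 of 17 fits with 1 mouse left out. Cytokines and chemokines had a median of -0.011 (from -0.025 without SUS 1 to -0.0018 without SUS 10), with Tgfb2 at 0.13 ± 0.064, 8 of 10 SUS mice above and 1 below every RES mouse, and Tgfbr1 at -0.13 ± 0.067. Without SUS 3 and SUS 7 the MHC class I median was -0.013, that of complement -0.012, the MHC class II median 0.13 and the interferon median -0.094. Il1b, Il6, Tnf and 5 chemokine genes did not pass the filter.

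The medians of growth factor, guidance, matrix and cytoskeletal lists lay between 0 and 0.1, and several moved by more than 1.5 times when 1 mouse was left out. IGF, VEGF and FGF genes were higher in 24 of 33 cases (median 0.044, from 0.034 without RES 5 to 0.057 without SUS 8), with the binding proteins Igfbp2 at 0.22 ± 0.10 and Igfbp3 at 0.27 ± 0.12. Wnt signalling (28 of 44 higher, median 0.038, from 0.019 without RES 5 to 0.046 without RES 7) held Dvl1, a cytoplasmic transducer, at 0.11 ± 0.041 and the receptor Fzd2 at -0.28 ± 0.12. Axon guidance (31 of 49 higher, median 0.044, from 0.019 without RES 5 to 0.057 without RES 6) held Efna1 at -0.31 ± 0.12 and Sema4a at 0.18 ± 0.081. Collagens (26 of 41 higher, median 0.058, from 0.029 without SUS 4 to 0.074 without RES 6) included Col6a4, called lower at -0.50 ± 0.27. Its call was lost in 6 of 17 fits with 1 mouse left out, and its smallest log2 fold change was -0.34, without RES 2. The lectican matrix list (9 of 17 higher, median 0.0076, from -0.029 without RES 5 to 0.020 without SUS 3) included Adamts14. Tubulins and microtubule proteins (25 of 35 higher, median 0.049, from 0.029 without RES 1 to 0.059 without SUS 8, Mapt at 0.065 ± 0.039), actin genes (27 of 36 higher, median 0.029, from 0.013 without RES 1 to 0.031 without RES 4, Myh9 at 0.12 ± 0.064) and cholesterol synthesis (17 of 20 higher, median 0.043, from 0.026 without SUS 3 to 0.060 without RES 2) gave no call. Without SUS 3 and SUS 7 the medians were 0.016 for collagens, 0.017 for tubulins, 0.0076 for actin genes and 0.021 for cholesterol synthesis.

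Clustered protocadherins, the adhesion genes that give neurons their surface identity, were lower in 39 of 54 cases (median -0.048, from -0.063 without RES 4 to -0.038 without SUS 8). Pcdhb4 was at 4.81 ± 0.847 CPM in SUS and 6.12 ± 0.946 CPM in RES mice (-0.35 ± 0.11) and Pcdhb7 at -0.16 ± 0.069, though members of this family share sequence. Circadian clock genes were lower in 13 of 19 cases (median -0.043, from -0.052 without RES 5 to -0.022 without RES 7, Arntl at -0.11 ± 0.062, Bhlhe41 at -0.10 ± 0.090). Heat shock genes (22 of 30 higher, median 0.044, from 0.026 without RES 1 to 0.059 without RES 4) were led by the co-chaperone Bag3 at 0.35 ± 0.14 and the small heat shock protein Hspb1 at 0.29 ± 0.15. Hypoxia and glycolysis (18 of 25 higher, median 0.034, from 0.020 without SUS 3 to 0.052 without SUS 8, Pfkl at 0.10 ± 0.047, Pfkp at 0.10 ± 0.050), iron handling (17 of 24 higher, median 0.026, from 0.017 without SUS 10 to 0.036 without RES 1, Ftl1 at -0.075 ± 0.036, Steap3 at -0.22 ± 0.11), PI3K, AKT and mTOR (14 of 29 higher, median -0.0055, from -0.025 without SUS 5 to 0.0033 without SUS 6, Pik3r1 at -0.10 ± 0.055, Pik3r2 at 0.16 ± 0.089) and TGF-beta and BMP signalling (16 of 35 higher, median -0.0039, from -0.017 without RES 5 to 0.0051 without RES 3, Nog at 0.26 ± 0.13) gave no call. The TGF-beta and BMP median was 0.0072 without SUS 3 and SUS 7.

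**Figure D3:**
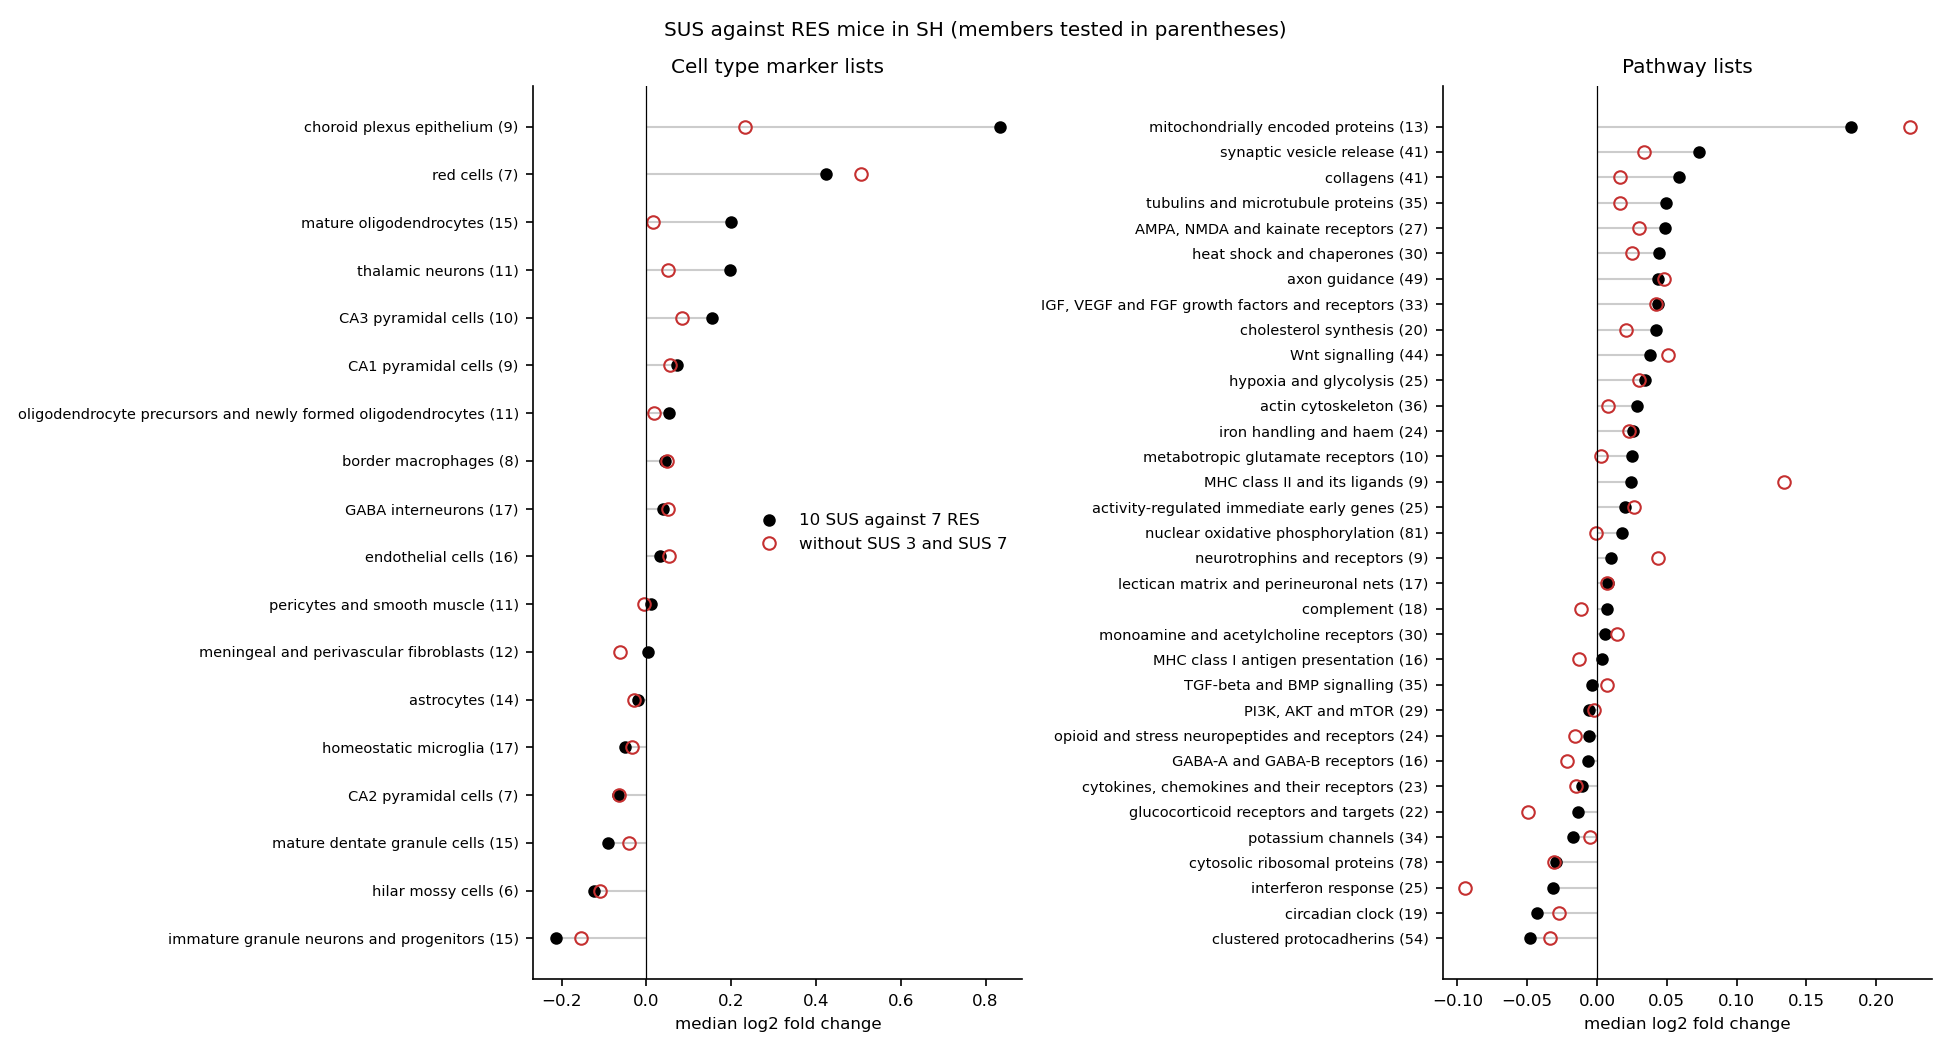
Median log2 fold change of SUS against RES mice on the x axis for cell type lists (left) and pathway lists (right) with at least 6 genes tested, the number tested in parentheses, for all 17 mice (filled) and without SUS 3 and SUS 7 (open). The x axes differ between the panels. Choroid plexus and red cell markers lie farthest to the right, the open point of oligodendrocytes lies near 0, and the immature granule cell list stays the lowest with and without these mice.

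Of the 120 genes called higher in SUS mice 60 were processed pseudogenes, which are copies of spliced mRNAs pasted back into the genome. This class was looked at after its values were seen. Of 998 processed pseudogenes tested, 734 were higher in SUS mice, and the median log2 fold change was 0.12. Of these 60 were called higher and 8 lower, which is 6.01% called higher against 0.667% of all genes. Of the pseudogenes tested 55.6% lay below 1 CPM on average, against 15.5% of all genes tested and 65.0% of the 200 called. The shares called higher therefore compare genes of unlike level. The intact parent gene could be matched by name for 14 called pseudogenes, of which 13 were higher. Of these parent genes 0 were called, with log2 fold changes between -0.070 and 0.049. The pseudogenes of this set were picked by their call and the parents were not. Only 0.529% of all protein-coding genes tested were called, so 0 of 14 says little about the parents. Rps10-ps2, among the 12 genes with the smallest p, was at 1.47 ± 0.136 CPM in SUS and 1.04 ± 0.269 CPM in RES mice (0.50 ± 0.13), whereas Rps10, a gene of the small ribosomal subunit, averaged 104 and 109 CPM. Phf20-ps was at 0.583 ± 0.139 CPM and 0.352 ± 0.136 CPM (0.71 ± 0.22), and its parent Phf20, a gene of a histone acetyltransferase complex, averaged 145 and 143 CPM. A read can be told from the parent's only where the letters differ.

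To show how few letters tell such a copy from its parent, 120 bases of each pair are given from the GENCODE transcripts of GRCm38, 5′ to 3′ in the sense of the transcript, at the stretch with the most differences and with the differing bases in capitals. Rps10 lies at chr17:27630418-27636669 and Rps10-ps2 at chr16:20822145-20822640, both on the minus strand. Over 456 aligned bases 99.1% were identical, and the stretch holds all 4 differences.
Rps10 coding bases 319 to 438: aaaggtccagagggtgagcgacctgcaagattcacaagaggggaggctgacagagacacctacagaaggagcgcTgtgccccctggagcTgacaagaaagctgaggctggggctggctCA
Rps10-ps2 bases 319 to 438: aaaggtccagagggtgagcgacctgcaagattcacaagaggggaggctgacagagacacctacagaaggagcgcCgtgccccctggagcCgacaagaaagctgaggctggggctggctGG
Phf20 lies at chr2:156196466-156309952 and Phf20-ps at chr7:14304780-14307665, both on the plus strand. They were identical at 97.1% of 2883 aligned bases, and the stretch holds 11 differences.
Phf20 coding bases 632 to 751: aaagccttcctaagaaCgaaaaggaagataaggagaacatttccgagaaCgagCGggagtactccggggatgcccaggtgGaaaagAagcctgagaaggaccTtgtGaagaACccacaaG
Phf20-ps bases 545 to 664: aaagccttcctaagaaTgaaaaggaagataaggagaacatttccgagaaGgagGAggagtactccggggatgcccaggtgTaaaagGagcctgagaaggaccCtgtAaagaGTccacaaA

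The level of processed pseudogenes moved with the share of read pairs that were not mapped. The mean log2 CPM over the 998 pseudogenes was 0.11 ± 0.14 in RES and 0.22 ± 0.10 in SUS mice (SD), and unmapped pairs made up 14.4% to 18.8% (median 14.98%) and 14.2% to 17.3% (median 15.9%) of all pairs. Over the 17 mice Pearson's r was 0.89 (permutation p = 1e-05, the smallest that 100000 resamples can give, adjusted p = 5e-05 over 5 library measures) and Spearman's rho 0.80 (permutation p = 0.00022, adjusted p = 0.0011). Without RES 3 and SUS 10, the mice farthest from the median, r was 0.84. Within RES, SUS and control mice r was 0.94, 0.88 and 0.91. RES 3, with the most unmapped pairs, had the highest pseudogene level, and without it 121 pseudogenes were called higher in SUS mice, while 37 were without RES 6. With the unmapped share as a covariate 36 were called higher in place of 60, and the median over pseudogenes in limma was 0.076 in place of 0.126. The same covariate left 107 protein-coding genes called in place of 76. The part of read mapping in the difference of pseudogenes was not tested beyond this covariate.

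**Figure D4:**
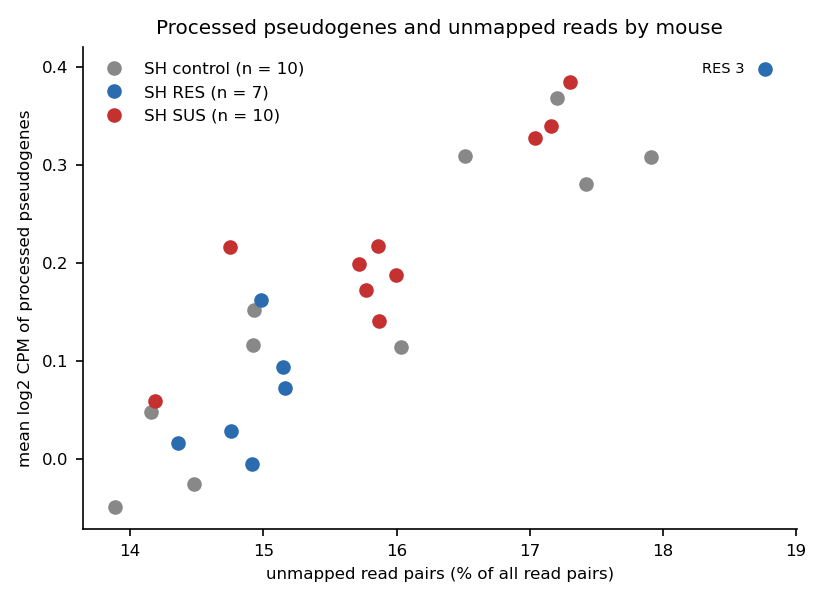
Mean log2 CPM of 998 processed pseudogenes (y) against unmapped read pairs in percent of all pairs (x), with each point 1 SH mouse, colored by group. Both rise together in control, RES and SUS mice, 6 of 7 RES mice lie at the lower left, and RES 3 lies at the upper right.

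SUS and RES mice of EE were compared in the same fit, to ask whether the differences of SH mice recur in other housing. The difference between housings was tested as an interaction, which called 0 of 17991 genes at an adjusted p of 0.05 (0.00%) and 931 (5.17%) at an unadjusted p below 0.05. The smallest adjusted p was 0.340, and the 3 smallest p-values belonged to Gripap1, Phf20-ps and the pseudogene Gm9105. Gripap1 had a log2 fold change of 0.12 ± 0.029 in SH and -0.057 ± 0.027 in EE. Phf20-ps went from 0.71 in SH to -0.62 in EE, and Gm9105 from 0.69 to -0.77. The whole class of processed pseudogenes had a median of 0.12 in SH and -0.11 in EE. Of the 200 genes called in SH, 76 had the same sign in the separate mice of EE, where 8694 of all 17991 genes did. Among the called genes, 36 of the 76 protein-coding genes and 18 of the 68 processed pseudogenes had the same sign.

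Most of the genes with the smallest p in SH had log2 fold changes near 0 in EE. Lag3 averaged 1.22 CPM in SUS and 1.21 CPM in RES mice of EE (log2 fold change 0.014), B230110C06Rik had a log2 fold change of 0.020, Krt9 of 0.010, Klhl32 of 0.095, Orc6 of -0.013 and Tuba8 of 0.092. The interaction p-values of all 12 lay below 0.05 without adjustment, but these genes were picked by their difference in SH, which enters that test. Drd2 was at 0.061, Eomes at 0.49, Crhr2 at 0.12 and Cpne7 at -0.17 in EE. For the cell type lists, the EE medians were 0.083 for mature and 0.0058 for immature granule cells, 0.070 for mossy cells, 0.026 for CA3 and -0.39 for CA1 markers, so the lean of granule and mossy cell markers toward RES mice was not seen there. Oligodendrocyte (0.14), thalamic (0.55), choroid plexus (0.52) and red cell markers (0.31) leaned the same way in both housings.

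**Figure D5:**
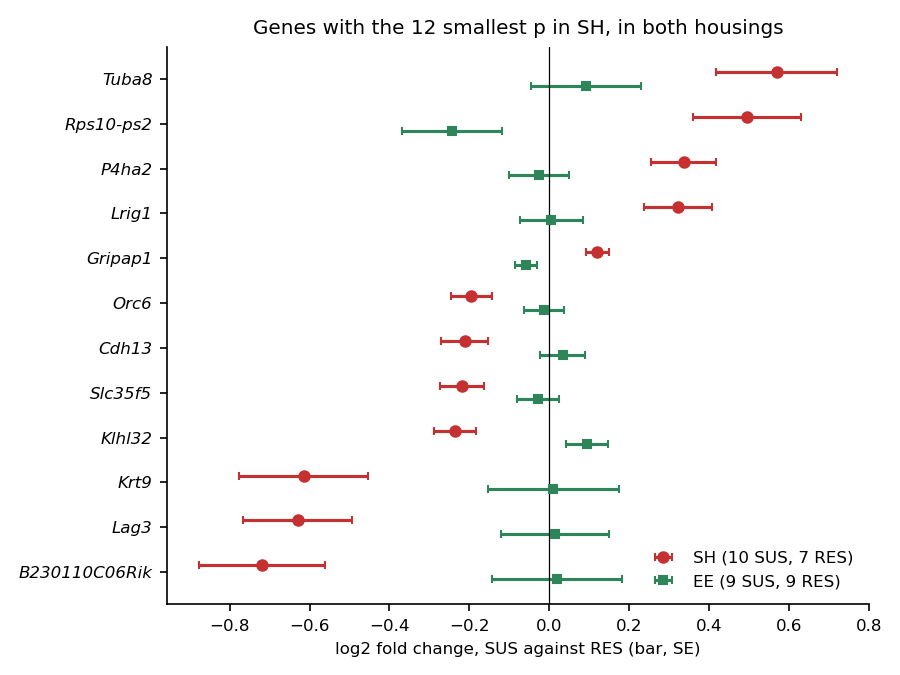
Log2 fold change of SUS against RES mice (x, with SE) in SH (circles, 10 SUS and 7 RES mice) and EE (squares, 9 SUS and 9 RES mice) for the 12 genes with the smallest p in SH. In EE, 8 of the 12 points lie on the other side of 0 from SH, and Rps10-ps2 lies farthest from 0, at -0.24.

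Unstressed SH control mice gave the background. For 171 of the 200 called genes the mean of control mice lay between those of SUS and RES mice, compared with 7628 of all genes, and genes picked for a wide gap favor such a position. Control mice were nearer to SUS mice for 132 of the 200 and for 53 of the 76 protein-coding genes. Over all 17991 genes they were nearer to SUS mice for 9852. The called genes were picked for a gap between SUS and RES mice, and RES means rest on fewer mice. Such a pick can by itself set controls nearer to SUS mice, so the counts do not show which group departs from controls. Control means were close to SUS mice for Lag3, Krt9 (3.75 CPM), Crhr2 (1.57 CPM) and Cdh13 (59.4 CPM), and close to RES mice for Eomes (0.749 CPM) and C3 (0.276 CPM).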

How the data were processed

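Strand-specific libraries of total RNA were read in pairs. Per the labels and the methods of the study, the authors aligned reads to GRCm38 (mm10) with STAR, and the deposited tables hold raw counts of read pairs per Ensembl gene for 45318 genes, unstranded and for each strand, with no normalization. The methods name featureCounts, but the tables are laid out as STAR writes gene counts. Versions are not given in the sources used here. The 4 rows for unmapped, multimapping, unassigned and ambiguous pairs stayed out of library sizes and tests, and unmapped pairs made up 14.2% to 18.8% of all pairs in SUS and RES mice of SH. The column of reverse-strand counts was used, since it holds the transcript strand.

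The groups SUS and RES in SH and in EE (35 mice) were fitted together, as they share 1 estimate of the spread, after TMM scaling and the filterByExpr filter, which kept 17991 genes. Tests were edgeR 4.0.16 (quasi-likelihood, Benjamini-Hochberg adjustment over all genes), limma 3.58.1 with voom at the criterion of the study (unadjusted p below 0.05, fold change above 1.3) and DESeq2 1.42.0, in R 4.3.3. CPM are TMM-scaled, and log2 CPM carry a prior count of 2. Log2 fold changes are those of edgeR unless another tool is named. Symbols and coordinates are from GENCODE vM21. The model was tested on counts simulated for the same groups, with 17866 genes tested, 200 of them changed by a log2 fold of 1 in SUS mice of SH. At an adjusted p below 0.05 edgeR recovered 98.5% of the changed genes and called 13 others. The criterion of the study called 197 genes that were not changed. Named genes were the 12 with the smallest p, the 8 largest protein-coding differences in each direction among genes called with at least 1 CPM, the called members of each list (at most 4, else the 2 with the smallest p), defining markers and the 3 smallest interaction p-values. Some of these genes are not reported here, and they stay in the counts and medians. The genes and lists were chosen with earlier results of these data known. P-values measure the spread between mice, whose litters and cages the labels do not give. Counting error of PCR reads without molecular identifiers is not covered.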

Additional observations from a re-analysis of the deposited data

Results flagged for a closer look

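Single mice stood far from the rest of their group in 31 cases among 330 groups of values screened with Dixon's test (named genes in CPM and lists in mean log2 CPM), a test that marks about 1 group in 20 by chance. The values below are given with the next mouse of the same group, and no cause was tested.

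RES 5 stood apart most often. Its level was 8.10 (highest, next 5.18) CPM for Krt9, 88.5 (highest, next 71.6) for Cdh13, 97.1 (highest, next 72.5) for Bdnf, 145 (highest, next 108) for Pik3r1, 14.7 (highest, next 12.1) for Grm8 and 8.53 (highest, next 4.92) for Efna1. Its immature granule neuron list was at 2.87 (highest, next 2.61) log2 CPM and its TGF-beta and BMP list at 3.50 (lowest, next 3.66). RES 4 stood apart in thalamic markers, with 11.7 (highest, next 6.13) CPM of Tcf7l2, 12.8 (highest, next 5.22) CPM of Tnnt1 and a list level of 4.62 (highest, next 3.65) log2 CPM, and in the metabotropic glutamate receptor list at 6.15 (highest, next 6.04). RES 1 held 50.5 (highest, next 43.5) CPM of Klhl32 and 887 (highest, next 813) CPM of Slc1a3. RES 7 held 1.94 (highest, next 0.332) CPM of Ttr and 4.32 (lowest, next 5.71) CPM of Ighm. RES 2 was at 2.51 (lowest, next 2.63) log2 CPM for the complement list. RES 3 held 0.388 (highest, next 0.0974) CPM of Kcnj13 and 0.40 (highest, next 0.16) log2 CPM of processed pseudogenes, the mouse with the largest share of unmapped read pairs.

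Among SUS mice, SUS 3 held 315 (highest, next 143) CPM of Ttr, 3.86 (highest, next 1.84) CPM of Kcnj13, 14.5 (highest, next 10.8) CPM of Sox10, 2.35 (lowest, next 3.18) CPM of Fzd2 and 1.92 (highest, next 1.68) log2 CPM of the interferon list. SUS 5 held 3.82 (highest, next 1.07) CPM of Dsc3, 12.8 (highest, next 5.32) CPM of Rxfp1, 43.3 (highest, next 20.6) CPM of Tshz2 and 46.8 (highest, next 39.6) CPM of Arntl. The first 3 of these genes were among the 8 largest lower differences, and their log2 fold changes without SUS 5 were -2.0, -1.09 and -0.97. SUS 10 held 8.87 (highest, next 6.16) CPM of mt-Atp8 and 0.919 (lowest, next 1.54) CPM of the pericyte gene Higd1b. SUS 1 held 0.732 (lowest, next 1.12) CPM of Drd2.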

How the results depend on the processing

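Under none of the alternatives did a gene of SH mice pass an adjusted p of 0.05, and none did for the difference between housings. The count of 200 genes at the criterion of the study was 859 with no filter on low counts (422 higher, 437 lower, against 120 and 80) and 88 with a filter of 1 CPM in 7 mice. Of the 859 and 88 genes, 190 and 85 were among the 200. The 60 pseudogenes called higher became 140 and 25 under these filters, and 36 with the share of unmapped pairs as a covariate. That alternative was chosen after seeing the data, as was leaving out SUS 3 and SUS 7. The 76 protein-coding genes became 253 and 48. Leaving out 1 mouse at a time gave 180 to 304 genes, 37 to 121 pseudogenes higher and 67 to 119 protein-coding genes. The extremes were reached without SUS 1 (180 and 67), RES 3 (304 and 121), RES 6 (37) and RES 7 (119). Other alternatives, among them other scaling, unstranded counts, 6 groups or SH mice alone, the choroid and thalamic covariates, quality weights, edgeR and DESeq2, gave 171 to 255 genes. The causes were not tested beyond the filters themselves, which change the genes tested.

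Replicate numbers do not mark a shared cage or day in the labels, and the correlations of same-numbered mice lay between -0.068 and 0.097, so they were not taken as pairs. With a replicate block 291 genes were called, 156 of them among the 200, and 159 protein-coding genes, against 76, with none past adjustment.

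The log2 fold changes of 116 named genes kept their sign in all 3343 alternative values. Most of these genes were picked by their p or difference in the same mice, so their signs could hardly turn. Some genes named with values near 0, such as Cx3cr1 and mt-Nd1, were not among the 116. List medians took the other sign in 97 of 1566 values, in 19 of 54 lists. The choroid plexus median was 0.053 with the choroid and thalamic covariates, but the choroid covariate was computed from that same list, so its fall was built in. Of 29 named genes called, 16 stayed called without each mouse in turn. Depth limits the genes near 1 CPM, where 130 of the 200 lie below it.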

Other observations

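Other classes of RNA were looked at after the values of pseudogenes were seen. Of all 17991 genes tested, 0.667% were called higher and 0.445% lower in SUS mice. Of long intergenic noncoding RNAs 3 were called higher and 9 lower in SUS mice of 403 tested, with a median log2 fold change of -0.028. Of antisense transcripts 6 were called higher and 4 lower in SUS mice of 409 tested, with a median log2 fold change of -0.031. Of transcripts of the annotation class TEC 4 were called higher and 7 lower in SUS mice of 720 tested, with a median log2 fold change of -0.032. Of small nucleolar RNAs 1 were called higher and 3 lower in SUS mice of 144 tested, with a median log2 fold change of -0.017, and of microRNA genes 0 were called higher and 2 lower in SUS mice of 105 tested, with a median log2 fold change of 0.0078. In these classes the median lay below or near 0, whereas that of processed pseudogenes was 0.12.

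Red cell transcripts were also summed in unstressed mice. The median of their summed level was 83.0 CPM in control, 169 CPM in RES and 216 CPM in SUS mice, and the difference from control mice was not tested.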
